A study of Homo sapiens with 2 samples.

Results

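KDM4C is a histone demethylase that removes methyl groups from lysines of histone H3. To examine how the supply and use of heme and iron stood in squamous carcinoma cells with less KDM4C, RNA-seq data were used. In them, 55 genes of heme synthesis, heme transport, iron handling and iron-sulfur cluster assembly were followed. They were chosen by name, from the function of their products, and all 55 were found among the 58884 genes of the count table. Summed over the libraries, all 55 also reached 20 counts, as did 18078 genes of the whole table, and the ratios that follow were computed for those 18078.

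The shKDM4C cells were SAS cells infected with a lentivirus carrying a short hairpin RNA against KDM4C, and the LKO cells were SAS cells infected with the pLKO.1 control vector. SAS cells come from a tongue cancer of the squamous type. Both kinds of cells had gone through puromycin selection and grew in DMEM with fetal bovine serum. There was 1 library of poly(A) RNA per condition, with 50627096 counts for shKDM4C and 57626616 for LKO. KDM4C itself had 242 counts in the shKDM4C library, against 1047 in the LKO library. Which of the study's hairpins the sequenced cells carried is not given in the sources used here. With 1 library per condition no difference below has a replicate check, and no p-value was computed. Intervals are exact 95% Clopper-Pearson intervals that cover counting error only. In such bulk RNA, fewer cells that express a gene and less RNA per cell cannot be told apart.

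The cells matched their label. All 10 squamous epithelial markers had at least 20 counts. Their summed level was 1707 CPM in shKDM4C and 2025 CPM in LKO. CPM are read counts scaled to a common library size by TMM, a trimmed mean of ratios. Among these markers CDH1, DSG3 and TP63 were at least 1.5-fold lower in shKDM4C, at log2 ratios of -1.03, -0.70 and -0.69. KRT6A was at least 1.5-fold higher, at 1.04, and the intervals of all of these excluded no change. Of 10 erythroid markers only EPOR had at least 20 counts, at 46 in shKDM4C and 85 in LKO, and ALAS2, the erythroid form of the first heme enzyme, had 2 counts in each library. Of 6 fibroblast, 5 hematopoietic and 4 endothelial markers, 2, 2 and 3 had at least 20 counts, and the most abundant of them had 123, 16 and 67 counts in a single library. The summed erythroid level was 1.06 CPM in shKDM4C and 1.54 CPM in LKO. The other sums were higher in shKDM4C, at 3.03 CPM against 1.96 CPM in LKO for fibroblast markers, 0.75 CPM against 0.32 CPM in LKO for hematopoietic markers and 3.70 CPM against 1.30 CPM in LKO for endothelial markers, of which PECAM1, CDH5 and VWF were each at least 1.5-fold higher with intervals that excluded no change. The part of these low levels in the results was not tested.

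Heme is made in a chain of enzymes that starts in mitochondria with glycine and succinyl-CoA, passes through the cytosol and ends in mitochondria, where ferrochelatase inserts iron into protoporphyrin. In cells outside the erythroid lineage ALAS1, the first enzyme, limits the rate, and free heme lowers it. Iron enters cells largely as transferrin bound to the transferrin receptor, is stored in ferritin, and is built into iron-sulfur clusters on a scaffold protein in mitochondria. When iron is scarce, iron regulatory proteins bind hairpins in mRNAs called iron-responsive elements. Binding in a 5′ untranslated region blocks translation, and binding in the 3′ untranslated region of the transferrin receptor mRNA protects that mRNA from decay.

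Elements in a 5′ UTR mark members in which mRNA level and protein level may part, and those in the 3′ UTR of TFRC bear on its mRNA level. Elements of both kinds are therefore shown first. A search for the 6-base loop CAGTGN, closed by 5 base pairs (G with T allowed) and an unpaired C before them, anywhere in the transcript, found them in 196 of 13264 canonical transcripts of the genes tested (1.48%) and in 4 of the 55 members (7.27%), TFRC, FTL, FTH1 and SLC40A1. The canonical transcript of SLC11A2 held 0. Only the canonical transcript of each gene was searched, so elements in other transcripts, or of another form, were not counted. The 3′ UTR of TFRC, on the minus strand of chromosome 3 in GRCh38, held 4, and they are printed 5′ to 3′ with the loop in capitals, with T for U, in the order of the transcript. The FTL element lies in the 5′ UTR at chr19:48965338-48965360 on the plus strand, and the SLC40A1 element in the 5′ UTR at chr2:189580663-189580687 on the minus strand.
TFRC element 1, chr3:196050981-196051005: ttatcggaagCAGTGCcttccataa
TFRC element 2, chr3:196050577-196050601: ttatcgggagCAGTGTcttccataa
TFRC element 3, chr3:196050512-196050536: gtatcggagaCAGTGAtctccatat
TFRC element 4, chr3:196050465-196050489: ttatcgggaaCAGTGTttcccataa
FTL element: ttgcttcaaCAGTGTttggacgg
SLC40A1 element: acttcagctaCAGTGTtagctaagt

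The promoters of 3 members are shown next, FECH and ISCU among the lower genes and SLC25A38 among the higher ones. They run from 250 bases before to 50 after the transcription start in RefSeq (GRCh38.p14). FECH is taken because it is the gene at the center of the study's question. Each of the 3 held a word of the kinds searched, and lower or higher members whose promoters held none are not printed. The printed promoters therefore do not show how common such words are. The windows lie at chr18:57586653-57586952 on the minus strand for FECH, at chr12:108562346-108562645 on the plus strand for ISCU and at chr3:39383120-39383419 on the plus strand for SLC25A38. Capitals mark the words found in them, on either strand, and 4 kinds of word were searched. These were the GATA word AGATAA with its variants that start with T, end in G, or both, the core of the antioxidant response element TGACNNNGC, the NRF1 word GCGCANGCG and the E-box CACGTG.
FECH promoter: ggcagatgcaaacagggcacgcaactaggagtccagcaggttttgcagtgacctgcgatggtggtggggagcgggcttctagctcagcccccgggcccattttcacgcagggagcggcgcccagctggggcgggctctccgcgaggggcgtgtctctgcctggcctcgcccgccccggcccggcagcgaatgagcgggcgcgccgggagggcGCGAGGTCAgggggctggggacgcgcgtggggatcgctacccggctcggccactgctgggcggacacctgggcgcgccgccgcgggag
ISCU promoter: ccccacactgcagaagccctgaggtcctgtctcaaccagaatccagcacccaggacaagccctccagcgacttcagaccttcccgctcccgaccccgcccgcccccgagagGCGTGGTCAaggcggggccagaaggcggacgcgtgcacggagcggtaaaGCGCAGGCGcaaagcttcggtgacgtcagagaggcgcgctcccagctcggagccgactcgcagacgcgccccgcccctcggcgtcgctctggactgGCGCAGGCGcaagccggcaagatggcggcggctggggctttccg
SLC25A38 promoter: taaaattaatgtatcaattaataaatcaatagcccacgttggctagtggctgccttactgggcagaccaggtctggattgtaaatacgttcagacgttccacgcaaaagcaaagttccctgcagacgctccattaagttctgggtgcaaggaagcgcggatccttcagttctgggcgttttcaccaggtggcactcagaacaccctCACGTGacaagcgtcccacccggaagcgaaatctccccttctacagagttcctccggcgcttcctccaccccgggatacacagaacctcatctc

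FECH held the antioxidant response core, on the opposite strand, starting 38 bases before the transcription start. ISCU held the same core starting 139 bases before its start and 2 NRF1 words, and SLC25A38 held an E-box 44 bases before its start. RefSeq promoters were matched for 48 of the 55 members, and not for SLC25A37, UROS, SLC39A14, FTH1, HEBP1, HMOX1 and NUBP2. A GATA word was found in 4 of the 48 (8.33%), BACH1, CPOX, HSCB and NUBP1, and in 15.6% of 11807 promoters of genes tested. None of the 6 matched promoters of lower members, FECH, PPOX, ALAD, SLC48A1, SLC40A1 and ISCU, held one in this window. Among them PPOX, ALAD and SLC48A1 held no word of any of the 4 kinds, and their promoters are not printed. The antioxidant core was in 12.5% of the members' promoters against 15.0% of those of genes tested, the NRF1 word in 14.6% against 14.1%, and the E-box in 14.6% against 9.77%. These matches are a description of letters in a short window, and bear on no binding.

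A gene was called when its level in the shKDM4C library was 1.5-fold or more away from that in the LKO library and its interval excluded no change. Of the 55 genes, 7 were called lower, 3 were called higher and 45 fell under neither call. The 7 lower members make up 12.7%, against 15.7% of all 18078 genes tested, and the 3 higher members 5.45%, against 13.0%. Among the 11656 genes that reached 200 counts, as most members did, 14.9% were lower and 8.46% higher. The members' shares thus lay near or below those of genes at large. Their median log2 ratio of shKDM4C over LKO was 0.09, with quartiles of -0.22 and 0.27 and a range of -1.36 to 0.77, and the median of all genes tested was -0.01. The members just short of the lower call were NUBP2 at -0.50 and HEBP1 at -0.48, and ALAD at -0.71 was the nearest inside it. In 31 of the 55 the ratio lay within 1.25-fold of no change, as it did in 7715 of all 18078 genes tested and in 6045 of the 11656 that reached 200 counts. By the counting interval alone, at any fold, 20 members were lower, 23 higher and 12 included no change. Of all genes, 33.5% were lower and 32.1% higher. By the same measure, 4914 of the 11656 genes that reached 200 counts were lower and 4399 higher.

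By step, heme synthesis held 4 of the 7 lower genes among its 13 members, and breakdown and transport, iron uptake and storage, and iron-sulfur assembly held 1 each among 12, 12 and 15. The difference between steps was not tested, and at 2-fold heme synthesis held 1 lower gene, as did iron uptake and storage. Of the 3 regulators of iron, 0 were called in either direction. The 3 higher genes were SLC25A38 in heme synthesis, HMOX1 in heme breakdown and ISCA1 in iron-sulfur assembly.

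**Figure D1:**
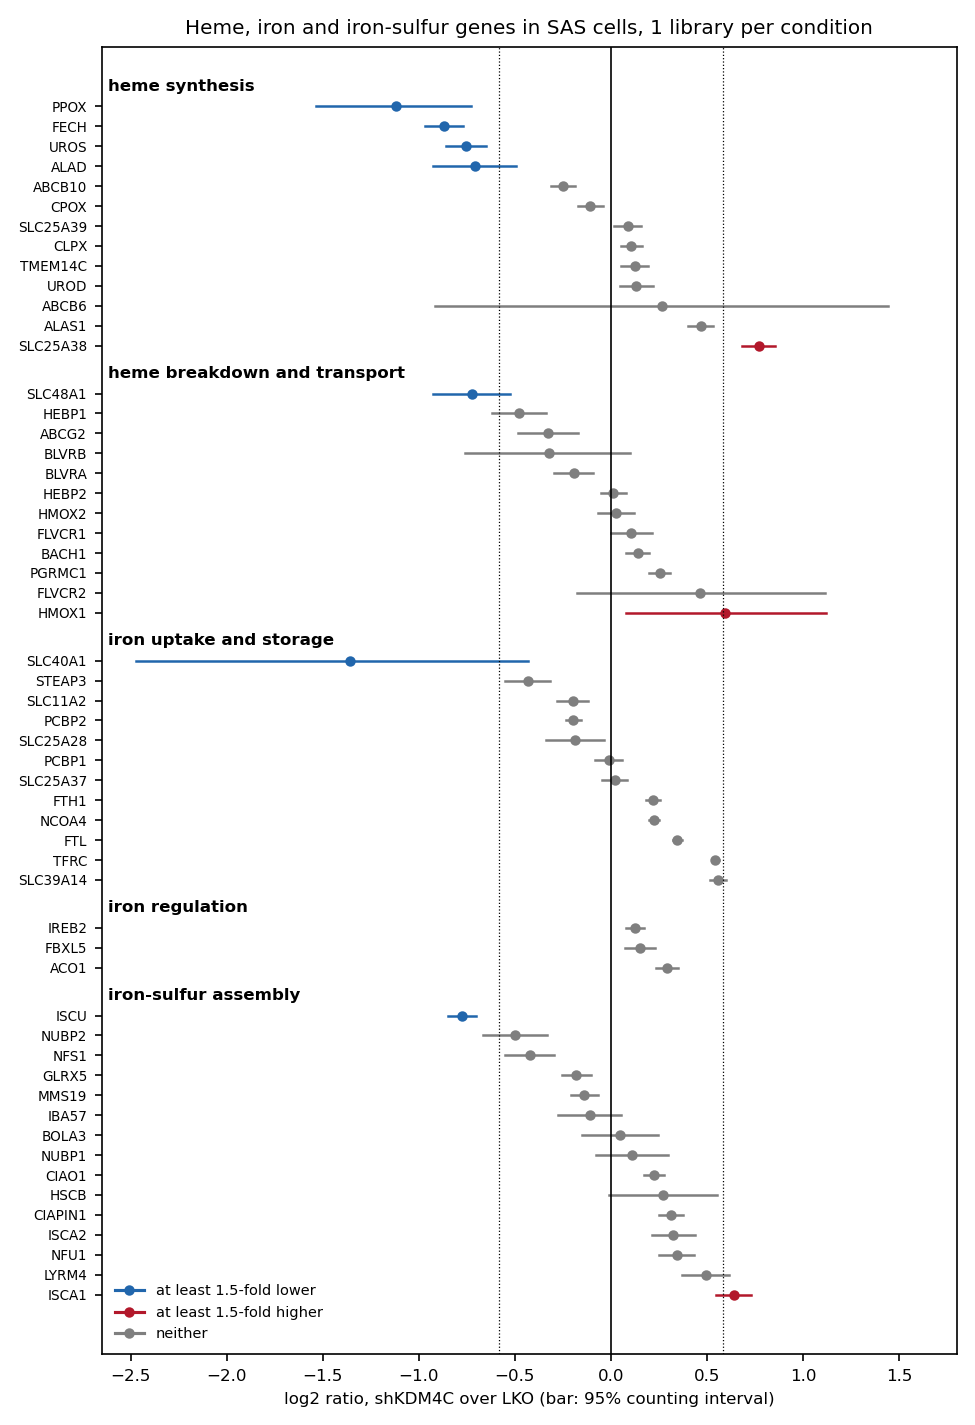
Log2 ratio of shKDM4C over LKO (x axis) of the 55 genes, by step, with points at the ratio and bars for the 95% counting interval; dotted lines mark 1.5-fold. The 7 lower genes run from PPOX and SLC40A1, at -1.12 and -1.36, to ALAD at -0.71, the 3 higher genes lie between 0.59 and 0.77, and the iron regulators lie close to 0.

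Heme synthesis holds enzymes and mitochondrial support genes. The call was lower for 4 of 7 enzymes and higher for 0, and their median log2 ratio was -0.71. Of 6 genes that carry substrates and intermediates across mitochondrial membranes or act on ALAS1, 0 were lower and 1 was higher, and the median was 0.11. Beside them stand the 15.7% of all genes lower and 13.0% higher, and the difference between these small groups was not tested. Single genes lay on either side in both, since ALAS1 and UROD among the enzymes had intervals above 0 and ABCB10 among the support genes had one below 0. The lower enzymes stand in the early cytosolic part of the chain (ALAD and UROS) and at its mitochondrial end (PPOX and FECH), and UROD and CPOX, called in neither direction, act between them.

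FECH (ENSG00000066926, chromosome 18, 57544377 to 57586732 on the minus strand), which inserts iron into protoporphyrin as the last step, had 1222 counts in the shKDM4C library, against 2679 in the LKO library. This was 24.8 CPM in shKDM4C and 45.3 CPM in LKO, or 54.8% of the LKO level (log2 ratio -0.87, interval -0.97 to -0.77). PPOX (ENSG00000143224, chromosome 1, 161166056 to 161178013, plus strand), the mitochondrial enzyme that oxidizes protoporphyrinogen just before it, had 73 counts in shKDM4C and 191 in LKO, a log2 ratio of -1.12 (interval -1.53 to -0.73). It was the least abundant of the 7 enzymes, and 23.7% of its exon bases overlap another gene, chiefly B4GALT3 on the opposite strand, which had 1689 counts in shKDM4C and 1668 in LKO. The kit marks strand but the strand setting of the counting is not given, so the part of B4GALT3 in the PPOX counts was not tested.

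UROS (ENSG00000188690, chromosome 10, 125784980 to 125823258, minus strand), which closes the porphyrin ring, had 1096 counts in shKDM4C and 2222 in LKO, at 59.2% of the LKO level. ALAD (ENSG00000148218, chromosome 9, 113386312 to 113401290, minus strand), which joins aminolevulinate molecules into porphobilinogen, had 266 counts in shKDM4C and 522 in LKO, at 61.2% of the LKO level. These 2 cytosolic enzymes had log2 ratios of -0.76 (interval -0.86 to -0.65) and -0.71 (interval -0.93 to -0.49). The enzyme that follows UROS, the decarboxylase UROD, was close to even, with 44.7 CPM in shKDM4C and 40.8 CPM in LKO, and so was CPOX, the oxidase that precedes PPOX, with 65.5 CPM in shKDM4C and 70.5 CPM in LKO.

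ALAS1, the first and rate-limiting enzyme, went the other way without reaching 1.5-fold, with 3858 counts in shKDM4C and 3355 in LKO, or 78.3 CPM in shKDM4C and 56.7 CPM in LKO (log2 ratio 0.47, interval 0.40 to 0.53). Within the same libraries, there were 3.16 ALAS1 counts per FECH count in shKDM4C and 1.25 in LKO, a ratio of ratios of 2.52 (95% counting interval 2.32 to 2.74). Such ratios of 2 genes within a library do not depend on the scaling, and the pairs given here were chosen after their values were seen. In the same way there were 2.01 UROD counts per UROS count in shKDM4C and 1.09 in LKO.

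**Figure D2:**
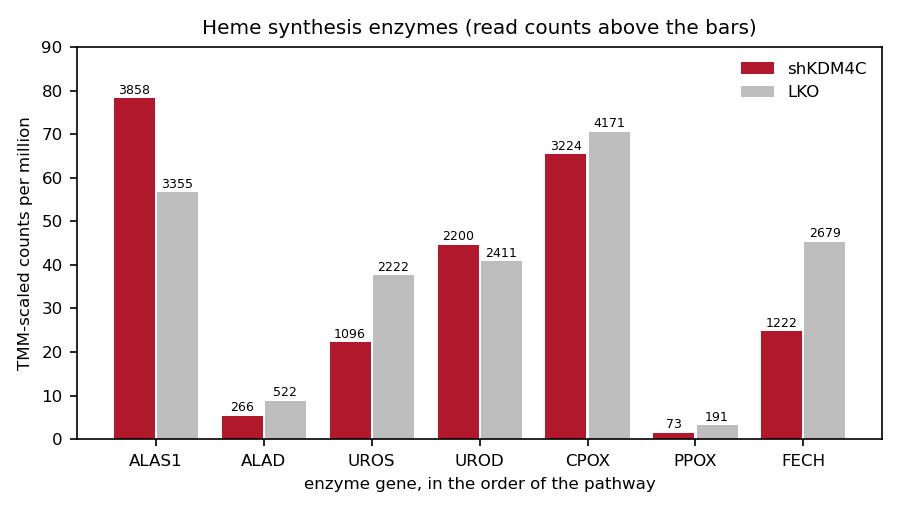
TMM-scaled CPM (y axis) of 7 heme synthesis enzymes in pathway order (x axis), shKDM4C left of LKO, 1 library each, with raw counts above the bars. ALAD, UROS, PPOX and FECH are lower in shKDM4C, ALAS1 stands at 78.3 CPM in shKDM4C and 56.7 CPM in LKO, and UROD and CPOX are nearly even.

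Among the mitochondrial genes of the pathway, SLC25A38 (ENSG00000144659, chromosome 3, 39383370 to 39397351, plus strand) was higher. It imports glycine, the substrate of ALAS1, into mitochondria, and had 2642 counts in shKDM4C and 1863 in LKO, or 53.6 CPM in shKDM4C and 31.5 CPM in LKO. Its level was 1.70-fold that of LKO (log2 ratio 0.77, interval 0.68 to 0.85), the highest ratio of the 55 genes. SLC25A39, which brings glutathione into mitochondria, TMEM14C, which moves protoporphyrinogen inward in erythroid cells, and CLPX, an unfoldase that acts on ALAS enzymes, had log2 ratios of 0.09, 0.12 and 0.11. ABCB10, an inner membrane transporter, had 71.5 CPM in shKDM4C and 84.9 CPM in LKO. ABCB6, a porphyrin transporter, had 14 counts in each library, which leaves an interval of -0.91 to 1.44. In ABCB6 54.6% of exon bases overlap another gene on the same strand, ENSG00000284820, which had 2 counts in shKDM4C and 8 in LKO. The part of this overlap in the low ABCB6 counts was not tested.

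In heme breakdown and transport, 10 of 12 members were called in neither direction, and the median log2 ratio was 0.02. Of all 18078 genes tested, 12880 were called in neither direction, as were 8931 of the 11656 that reached 200 counts. SLC48A1 (ENSG00000211584, chromosome 12, 47753916 to 47782751, plus strand), which carries heme out of lysosomes, was lower. It had 312 counts in shKDM4C and 620 in LKO, or 60.5% of the LKO level (log2 ratio -0.73, interval -0.93 to -0.53). HMOX1 (ENSG00000100292, chromosome 22, 35380361 to 35394214, plus strand), the inducible oxygenase that opens the heme ring, had 73 counts in shKDM4C and 58 in LKO. Its log2 ratio of 0.59 rests on these few counts, with an interval of 0.08 to 1.12, and lies just past the 1.5-fold line at 1.51-fold. It was not called under 6 of 8 other settings.

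The constitutive oxygenase gene HMOX2 was more abundant and even, at 36.2 CPM in shKDM4C and 35.5 CPM in LKO. BLVRA and BLVRB, which reduce biliverdin to bilirubin, had log2 ratios of -0.19 (interval -0.29 to -0.09) and -0.32 (interval -0.76 to 0.10). BACH1, the repressor of HMOX1 that heme releases from DNA, had 86.8 CPM in shKDM4C and 78.8 CPM in LKO, and its promoter is one of the 4 that hold a GATA word.

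The plasma membrane transporters of this step were not called. FLVCR1, a heme exporter, had 1305 counts in shKDM4C and 1456 in LKO, with an interval of the log2 ratio that just included no change (0.11, interval -0.003 to 0.22). ABCG2, which exports porphyrins, had 11.5 CPM in shKDM4C and 14.5 CPM in LKO. FLVCR2, a relative of FLVCR1, had only 46 counts in shKDM4C and 40 in LKO, and 27.6% of its exon bases overlap other genes. Among the proteins that bind heme, PGRMC1 had a log2 ratio of 0.25, HEBP2 0.01 and HEBP1 -0.48 (interval -0.62 to -0.34), with 642 counts in shKDM4C and 1074 in LKO for the last.

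In iron uptake and storage, 11 of 12 members were called in neither direction, beside 12880 of all 18078 genes tested. The 4 import genes lay on both sides of 0. TFRC, the transferrin receptor, was by counts the most abundant of the 55 genes, with 57036 counts in shKDM4C and 46999 in LKO, or 1158 CPM in shKDM4C and 795 CPM in LKO (log2 ratio 0.54, interval 0.53 to 0.56). SLC39A14, which carries iron not bound to transferrin, had 10358 counts in shKDM4C and 8468 in LKO (log2 ratio 0.56, interval 0.51 to 0.60). Both lie just below the 1.5-fold line, on the other side of it from ISCA1 at 0.64 and HMOX1 at 0.59. The partners of the receptor in the endosome had ratios below 0. STEAP3, which reduces the iron released from transferrin, had 953 counts in shKDM4C and 1546 in LKO (log2 ratio -0.43, interval -0.55 to -0.32), and SLC11A2, which carries it into the cytosol, had 2116 counts in shKDM4C and 2919 in LKO (log2 ratio -0.20, interval -0.28 to -0.12). There were 59.8 TFRC counts per STEAP3 count in shKDM4C and 30.4 in LKO, a ratio of ratios of 1.97 (interval 1.81 to 2.14), and for TFRC over SLC11A2 this ratio was 1.67 (interval 1.58 to 1.77).

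The ferritin genes did not oppose the receptor at the RNA level. FTL, the light chain, had 700.4 CPM in shKDM4C and 551.5 CPM in LKO (log2 ratio 0.35, interval 0.32 to 0.37), and FTH1, the heavy chain that oxidizes iron, had 243.3 CPM in shKDM4C and 208.8 CPM in LKO (log2 ratio 0.22, interval 0.18 to 0.26). There were 4.76 TFRC counts per FTH1 count in shKDM4C and 3.80 in LKO. NCOA4, the receptor that sends ferritin to lysosomes, had 427.6 CPM in shKDM4C and 366.3 CPM in LKO. FTL and FTH1 each hold a matched element in the 5′ UTR, and these RNA values say nothing of how much of each mRNA was translated. The matched elements of TFRC lie in its 3′ UTR, and their part in the TFRC ratio was not tested. The chaperones that hand iron to ferritin, PCBP1 and PCBP2, had log2 ratios of -0.01 (interval -0.08 to 0.06) and -0.20 (interval -0.24 to -0.16).

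FTH1 and FTL have many processed copies, with 25 and 16 pseudogene rows in the count table. The FTH1 copies together had 303 counts in shKDM4C and 252 in LKO, and the FTL copies 55 in shKDM4C and 46 in LKO, small beside the counts of the genes themselves. In FTH1 63.2% and in PCBP1 73.2% of exon bases overlap genes on the opposite strand, BEST1 and PCBP1-AS1, with 29 and 440 counts in shKDM4C and 11 and 341 counts in LKO. How far reads were exchanged between these genes and their copies was not tested.

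SLC40A1 (ENSG00000138449, chromosome 2, 189560590 to 189583758, minus strand), ferroportin, the exporter of iron, was lower but barely expressed, with 12 counts in shKDM4C and 38 in LKO (log2 ratio -1.36, interval -2.47 to -0.43). The mitochondrial iron importers SLC25A37 and SLC25A28 had log2 ratios of 0.02 (interval -0.05 to 0.08) and -0.19 (interval -0.34 to -0.04). The 3 regulators of iron lay close together on the positive side, each with an interval above 0. The iron regulatory protein genes ACO1 and IREB2 had 103.3 and 132.7 CPM in shKDM4C, against 84.4 and 121.8 CPM in LKO. FBXL5, the ubiquitin ligase subunit that removes IREB2 when iron is plentiful, had 53.5 CPM in shKDM4C and 48.1 CPM in LKO.

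In iron-sulfur assembly, 13 of 15 members were called in neither direction, beside 12880 of all 18078 genes tested. The step had a median log2 ratio of 0.11, and the called pair stands at opposite ends of the mitochondrial pathway. ISCU (ENSG00000136003, chromosome 12, 108562582 to 108569368, plus strand), the scaffold on which clusters are first built, had 2308 counts in shKDM4C and 4749 in LKO, or 46.9 CPM in shKDM4C and 80.3 CPM in LKO. This was 58.4% of the LKO level (log2 ratio -0.78, interval -0.85 to -0.70). ISCA1 (ENSG00000135070, chromosome 9, 86264546 to 86283102, minus strand), which serves the later making of 4Fe-4S clusters, had 2187 counts in shKDM4C and 1688 in LKO (log2 ratio 0.64, interval 0.54 to 0.73). There was 0.95 ISCA1 count per ISCU count in shKDM4C and 0.36 in LKO, a ratio of ratios of 2.67 (interval 2.46 to 2.89). With total counts in place of TMM, ISCA1 was no longer past 1.5-fold.

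The other genes of the first complex were called in neither direction. NFS1, the cysteine desulfurase that supplies sulfur to ISCU, had 812 counts in shKDM4C and 1307 in LKO (log2 ratio -0.42, interval -0.55 to -0.29). LYRM4, which stabilizes NFS1, had 1177 counts in shKDM4C and 1004 in LKO (log2 ratio 0.49, interval 0.37 to 0.62). There were 1.45 LYRM4 counts per NFS1 count in shKDM4C and 0.77 in LKO. HSCB, the cochaperone that helps to release the cluster from ISCU, had 215 counts in shKDM4C and 214 in LKO, and GLRX5, the glutaredoxin that takes it up, had 51.1 CPM in shKDM4C and 57.9 CPM in LKO.

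Of the later mitochondrial factors, ISCA2, the partner of ISCA1, had a log2 ratio of 0.32 (interval 0.21 to 0.43), NFU1, which delivers clusters to lipoate synthesis and respiratory chain proteins, 0.34 (interval 0.25 to 0.43), and BOLA3, which works with NFU1, 0.05 (interval -0.15 to 0.24). IBA57, which acts with the ISCA proteins, had 541 counts in shKDM4C and 701 in LKO (log2 ratio -0.11, interval -0.27 to 0.05).

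The 5 genes of the cytosolic pathway were all called in neither direction, beside 12880 of all 18078 genes tested. CIAPIN1, which passes electrons to the early cytosolic machinery, and CIAO1, of the complex that inserts clusters into target proteins, had log2 ratios of 0.31 (interval 0.25 to 0.38) and 0.22 (interval 0.17 to 0.28). MMS19, which binds those targets, had 59.2 CPM in shKDM4C and 65.2 CPM in LKO. The scaffold genes NUBP1 and NUBP2 had log2 ratios of 0.11 (interval -0.08 to 0.30) and -0.50 (interval -0.66 to -0.33), although their products form a complex, and 36.1% of the exon bases of NUBP1 overlap other genes.

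**Figure D3:**
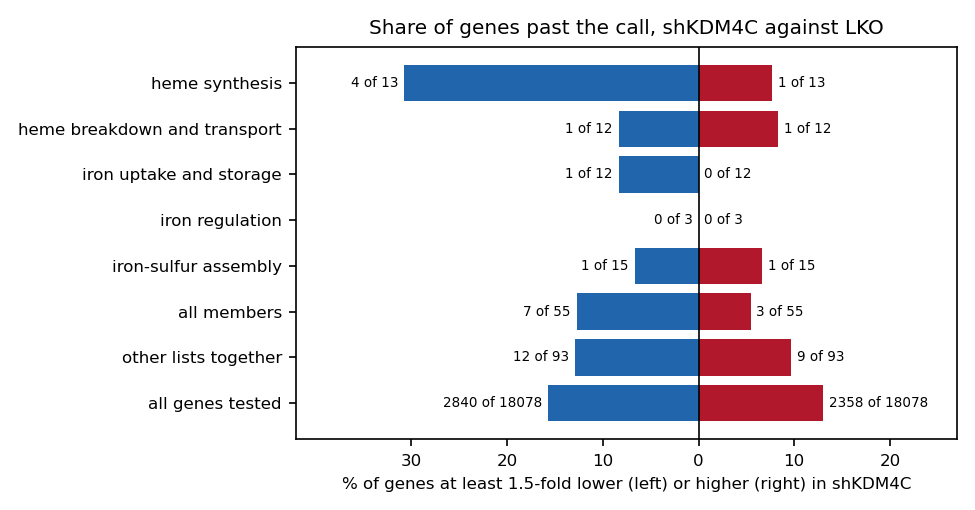
Percent of genes at least 1.5-fold lower (left) or higher (right) in shKDM4C than in LKO, by step, for all members, for 5 other lists together and for all genes tested, with counts beside the bars. Heme synthesis has 4 of 13 lower, and the members together have 7 of 55 lower and 3 of 55 higher, against 15.7% and 13.0% of all genes.

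The members spanned a wide range of levels, and the called genes were found at several of them. Per kilobase of annotated exon, FTL had 804 CPM in shKDM4C and 633 CPM in LKO, the highest level of the 55. FTH1, with 121 CPM per kilobase in shKDM4C and 104 in LKO, and NCOA4, with 107 in shKDM4C and 91.8 in LKO, came after it in both libraries. TFRC had 66.6 CPM per kilobase in shKDM4C and 45.7 CPM per kilobase in LKO. The union of exons is long for genes with many annotated transcripts, and by the length of the canonical transcript alone TFRC came to 231 CPM per kilobase in shKDM4C and 159 in LKO, above FTH1 in shKDM4C and below it in LKO. At the other end, the least abundant members by exon length were ABCB6, SLC40A1 and FLVCR2, all below 0.20 CPM per kilobase in both libraries, and HMOX1 and PPOX came just above them. The place of ABCB6 is uncertain, since 54.6% of its exon bases overlap another gene on the same strand.

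Of the called genes, ISCU ranked 28 of the 55 in shKDM4C and 16 in LKO and SLC25A38 ranked 16 in shKDM4C and 21 in LKO, with 10.6 and 20.2 CPM per kilobase in shKDM4C, against 18.2 and 11.8 CPM per kilobase in LKO. FECH and UROS lay lower, with 2.23 and 2.34 CPM per kilobase in shKDM4C, against 4.07 and 3.95 CPM per kilobase in LKO. By canonical transcript UROS had 16.7 CPM per kilobase in shKDM4C and 28.1 CPM per kilobase in LKO, since its annotated exons span far more bases than that transcript.

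**Figure D4:**
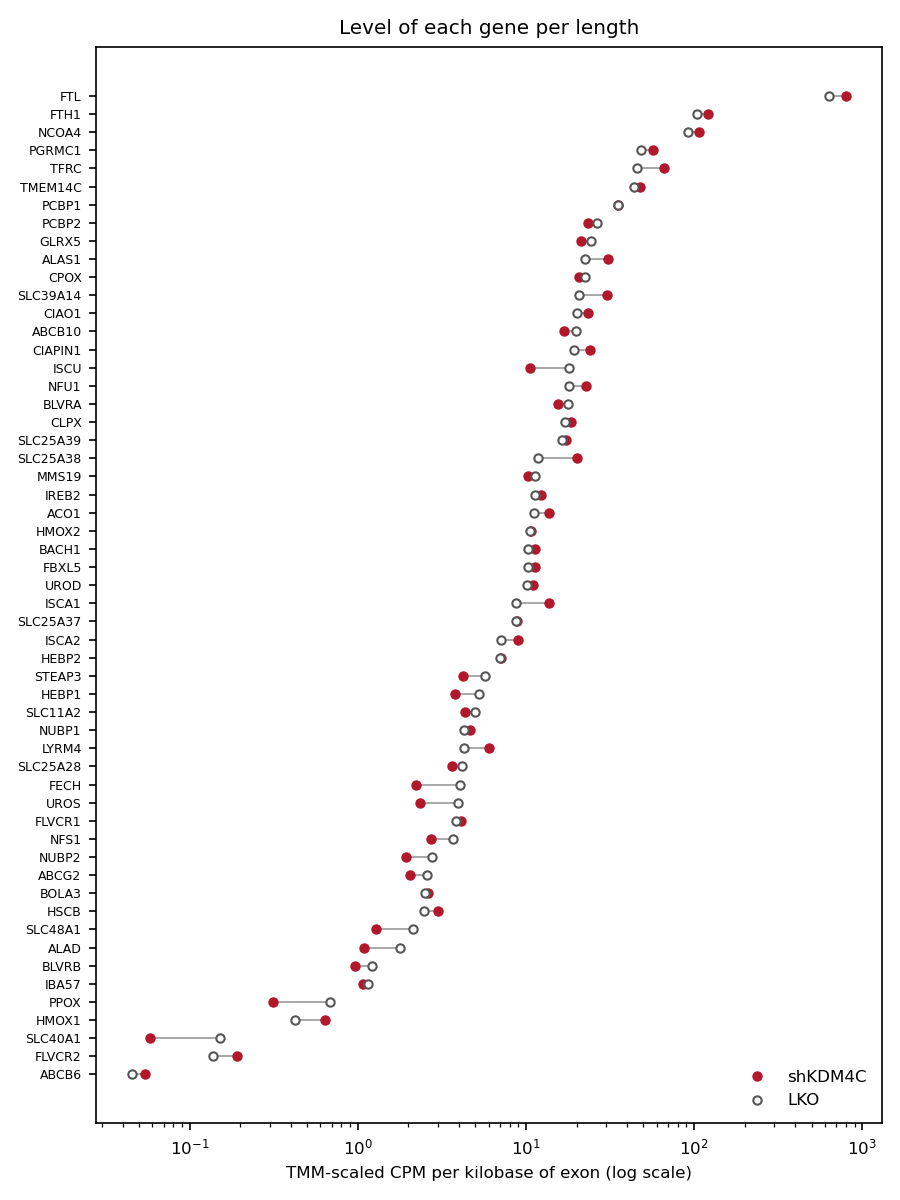
TMM-scaled CPM per kilobase of exon (x axis, log scale) of the 55 genes, ordered by LKO level, with filled points for shKDM4C and open points for LKO. FTL is highest at 804 in shKDM4C and 633 in LKO, ABCB6 is lowest in both libraries, and ISCU, SLC25A38, FECH, UROS, PPOX and SLC40A1 show wide gaps between the points.

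Genes around these pathways were counted in the same way, from 5 lists of other heme genes, other iron genes, other assembly genes, proteins that hold iron-sulfur clusters and proteins that hold heme. They hold 111 genes, of which 93 were tested. In the shKDM4C library 12 of these (12.9%) were lower and 9 (9.68%) higher, and the median log2 ratio was -0.10. The call was lower for 2 and higher for 1 of the 10 other heme genes tested. LONP1, the mitochondrial protease that degrades ALAS1 in the presence of heme, had 1228 counts in shKDM4C and 4056 in LKO (log2 ratio -1.46, interval -1.55 to -1.37), and LRP1, a receptor that takes up heme bound to hemopexin, had -0.98 (interval -1.28 to -0.68). The 13 other iron genes tested held 3 lower and 2 higher genes around a median of -0.34.

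Among 15 other assembly genes, 1 was lower and 1 higher, the higher gene being GFER, a sulfhydryl oxidase linked to cytosolic clusters, at 0.73 (interval 0.57 to 0.88). Proteins that hold clusters went both ways, with 3 lower, 3 higher and 28 neither of 34. MOCS1, of molybdenum cofactor synthesis, had -1.51 (interval -1.79 to -1.24), the DNA helicase BRIP1 -1.12 (interval -1.24 to -1.01) and PPAT, the first enzyme of purine synthesis, 0.88 (interval 0.83 to 0.93). The list of proteins that hold heme had 3 lower and 2 higher among 21 tested. The ends of this list lay far apart, from the cytochrome P450 gene CYP1B1 with 95 counts in shKDM4C and 1260 in LKO (log2 ratio -3.46) to the heme sensor and nuclear receptor gene NR1D1 with 889 in shKDM4C and 226 in LKO (log2 ratio 2.24). Between them, CYP51A1, a demethylase of sterol synthesis, had -0.96 (interval -1.24 to -0.69) and the prostaglandin synthase gene PTGS2 1.95 (interval 1.69 to 2.22).

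Finally, the words that pair with bases 2 to 8 of the study's hairpin guides were counted in the 3′ UTRs of the members, because a hairpin can lower other mRNAs through such words. The word GAAGATT of the first hairpin was in 9 of 55 members (16.4%), against 13.3% of 13225 genes searched, and CGAGAAA of the second was in 1 of 55 (1.82%), against 2.67%. None of the 10 called members held either word, but at these shares 10 genes are too few for that count to be read. An effect of the hairpins on mRNAs other than KDM4C was not tested.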

How the data were processed

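Poly(A) RNA of SAS cells, 1 library per condition, was sequenced by the authors after a library preparation that marks strand. Per the submitters' processing notes, the tools were HISAT2 and featureCounts on GRCh38, with CASAVA, Trimmomatic, FastQC, MultiQC and DESeq2 also named. Versions, gene annotation and strand setting were not given in the sources used here. The authors deposited raw read counts per gene, which were used here, and tables of their own comparison with fold changes and p-values, which were not used.

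Gene IDs were matched to GENCODE v44, in which 58472 of 58884 were found. TMM effective library sizes came from edgeR 4.0.16 in R 4.3.3, over genes that reached 20 counts in total, with factors of 0.974 for shKDM4C and 1.03 for LKO. The log2 ratio of shKDM4C over LKO used 0.5 as prior count. Its interval is the exact 95% Clopper-Pearson interval of 2 counts, which leaves out any spread between cultures and PCR copies. Intervals of ratios of ratios are 95% Wald intervals of 4 counts. A gene was called at 1.5-fold or more when its interval excluded no change. The 55 members and all lists were chosen with earlier results of these data known. Members are named throughout, and of each other list up to 2 called genes per direction with a mean of at least 100 counts, in the order of the interval bound that lies closest to 0. The list of other iron genes is given by its counts alone. Alternatives were DESeq2 1.42.0 size factors, total counts, count minimums of 1 and 200, a prior count of 5, a 2-fold call, the interval alone and a 99% interval. Scripts ran in Python 3.11.15 (scipy 1.17.1, pandas 2.3.3, numpy 2.4.6). The procedure was checked on simulated counts of 17750 genes, in which 29 of 33 genes lowered 2-fold and 21 of 26 raised 2-fold were called, and 17384 of 17552 unchanged genes were not. The simulated counts were drawn with counting error only and no spread between cultures, so they give no rate of false calls for the real libraries. At a log2 change of 0.585, the size of the call itself, 16 of 41 lowered and 15 of 32 raised genes were called. The intervals held the true ratio for 95.6% of unchanged genes and 87.9% of those lowered 2-fold.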

Additional observations from a re-analysis of the deposited data

How the results depend on the processing

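Of the 10 called members, all 10 were also called with DESeq2 size factors, 9 with a count minimum of 1, a prior count of 5 or a 99% interval, 8 with total counts or at least 200 counts, and 2, PPOX and SLC40A1, at 2-fold. HMOX1 was lost under every setting but the size factors and the interval alone, so heme breakdown and transport then had 0 higher genes. Total counts, which lower all ratios by about the same amount, also lost ISCA1, leaving 1 higher member and 0 in iron-sulfur assembly. At least 200 counts left out SLC40A1, so iron uptake and storage had 0 lower. At 2-fold, members numbered 2 lower and 0 higher, heme synthesis 1 lower and 0 higher, heme breakdown and transport 0 and 0, iron-sulfur assembly 0 and 0, and the other lists together 6 lower and 5 higher. By the interval alone, the counts of lower and higher genes were 20 and 23 of the members, 6 and 6 in heme synthesis, 4 and 3 in heme breakdown and transport, 5 and 5 in iron uptake and storage, 3 higher among the iron regulators, 5 and 6 in iron-sulfur assembly, and 47 and 27 in the other lists. Medians near 0 changed sign. That of heme breakdown and transport was -0.058 with total counts and -0.011 with a count minimum of 1, that of iron uptake and storage -0.074 and -0.027 with the same settings, and that of the other assembly genes 0.0088 with size factors, 0.043 with at least 200 counts and 0.00093 with a prior count of 5. The median of all genes was 0.0016, 0.059 and 0.00093 with size factors, a count minimum of 1 and a prior count of 5. After the values were seen, the 8 members that share at least 20% of their exon bases with another gene were left out as an added alternative, and 6 of 47 were then lower and 3 higher. No paired analysis was possible because there was 1 library per condition, and for the same reason no library could be left out. Genes with few counts, such as ABCB6, FLVCR2, HMOX1 and SLC40A1, are limited by depth. In ABCB6 and FLVCR2 exon bases are also shared with other genes, and the part of that sharing in their counts was not tested.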
